A study of Mus musculus with 30 samples.

Results

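Bone marrow-derived macrophages (BMDMs) of Mertk-/-V1 mice were compared with BMDMs of C57BL/6J mice (B6 WT) across all genes measured by RNA sequencing, so that pathways and programmes could be described along with the single genes that changed most. The members were taken from the table of BMDM libraries by their labels, 3 libraries of each genotype, which made 6 of the 30 samples of the series. Mertk-/-V1 mice lack exon 17, which encodes part of the kinase domain of MERTK, were made in 129P2 embryonic stem cells with a neomycin cassette left in the locus, and keep a 129-derived stretch of chromosome 2 around Mertk after backcrossing to C57BL/6J. Marrow cells of age-matched adult mice were grown in medium conditioned by L929 cells, a fibroblast line that secretes CSF1, and the libraries of a genotype were labelled as biological replicates. In a line kept in this way, the loss of MERTK, the cassette and the 129-derived alleles cannot be told apart in a comparison with B6 WT. For a second contrast, 6 BMDM libraries of the other knockouts were used, 3 of Mertk-/-V2 and 3 of Mertk-/-V3. In Mertk-/-V2 exon 18 is deleted on a background of C57BL/6J with some C57BL/6NJ. In Mertk-/-V3 CRISPR in C57BL/6NJ eggs removed exons 3 and 4, and the genome of the line is a mixture of C57BL/6J and C57BL/6NJ. Differences between these substrains cannot be told apart from genotype in the second contrast.

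MERTK is a receptor tyrosine kinase of the TAM family, with AXL and TYRO3, which binds GAS6 and protein S on the phosphatidylserine of dying cells and lets macrophages engulf them, and which dampens inflammatory signalling in the same cells. Marrow progenitors given CSF1 become proliferating macrophages, so that receptors of the innate immune system, the machinery of the cell cycle and the chaperones that fold new proteins are all active in such cultures. Immediate early genes, among them Fos and its partners, are switched on within minutes of a growth factor, a toll-like receptor ligand or a change of medium, and their messages decay as quickly.

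The values were normalized counts, that is, reads per gene divided by a scaling factor of the library, and 1 read was worth between 0.803 and 1.21 normalized counts. The 6 libraries held between 17560871 and 24869776 reads on genes. Mertk itself stood at 2414, 2649 and 2881 normalized counts in B6 WT and at 847, 883 and 865 in Mertk-/-V1, so that each Mertk-/-V1 library was far below each B6 WT library (log2 fold change -1.61 ± 0.06, adjusted p = 3.27e-09). The same gene was read at 3589, 3532 and 3579 in the 3 libraries labelled Mertk-/-V2, above B6 WT (0.43, adjusted p = 0.00129), and in Mertk-/-V3 at 651, 685 and 723. The summed count of a gene does not show the loss of 1 exon, so it left the label of Mertk-/-V2 unchecked. Axl did not pass the test (141, 164 and 118 normalized counts in B6 WT and 159, 157 and 132 in Mertk-/-V1), and Tyro3 lay below the level needed for testing, at 4.93, 6.52 and 6.84 in B6 WT and 16.4, 18 and 14.6 in Mertk-/-V1. All 12 macrophage markers were expressed in both genotypes. Those of mast cells were at or near 0, and of the eosinophil markers Epx, Ear1 and Ear6 were at 0 in all 6 libraries. The first principal component of the 12 BMDM libraries, which held 21.6% of the variance, set B6 WT replicates 1 and 2 (loadings 0.374 and 0.286) apart from B6 WT replicate 3 (-0.312), which lay with Mertk-/-V1 replicates 1 and 3 (-0.425 and -0.398) while Mertk-/-V1 replicate 2 was near 0 (-0.0269).

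In the fit over all 4 genotypes, 949 of 13420 genes were called at an adjusted p under 0.05 (limma on log2 values, Benjamini-Hochberg adjustment), of which 526, or 3.92%, were higher and 423, or 3.15%, lower in Mertk-/-V1. Outside chromosome 2, where the 129-derived stretch lies, 828 of 12382 genes were called, 456 higher and 372 lower, against 121 of the 1038 tested on chromosome 2. Most changes were moderate. Outside chromosome 2 the called genes had a median absolute log2 fold change of 0.29, 650 of them changed by under 0.5, and 75 changed by 1 or more. No overlap between the 3 libraries of each genotype was seen for 4145 genes (30.9% of those tested), so it was common among all genes. For a list it is read below only beside that share. For single called genes it follows largely from the call and is given as a description, not as added support. The counts rested on single libraries: leaving out B6 WT replicate 1 left 153 genes higher and 89 lower, and leaving out B6 WT replicate 3 gave 728 and 468. Of 143 called genes picked by the rule for naming genes, 58 were called under all 15 alternatives, Fos, Fosb, Dusp1, Klf2, Zfp36, Creld2, Hspa8, Ccl2, Ccl7, Ccr1, Clec4e, Csf1, Il1rn, Itgax, Lilrb4a, Lilr4b, Relb, Mgl2, Bmpr1a and C1qa among them.

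Across 33 gene lists, which together held 1020 tested genes, the calls fell unevenly. The lists with the largest shares of lower members were the heat shock genes, the unfolded protein response, immediate early genes, cell cycle and oxidative phosphorylation. Higher members were spread in small numbers over lists of receptors, inflammatory mediators and matrix genes. No member of the heat shock, ER chaperone, cell cycle, oxidative phosphorylation and ribosomal lists was called higher by limma, edgeR or DESeq2, and at an unadjusted p under 0.05 0, 2, 1, 0 and 0 of them were higher. Likewise no member of the lists of pattern recognition, efferocytosis, alternative activation, clock and macrophage identity genes was called lower by any of the 3 tools, against 3, 2, 2, 0 and 0 at an unadjusted p under 0.05. These lists held 16 to 35 tested genes each, so 0 lower calls is near the 3.15% of all genes. A count on a list describes that list beside the shares of all genes and was not tested against them.

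**Figure D1:**
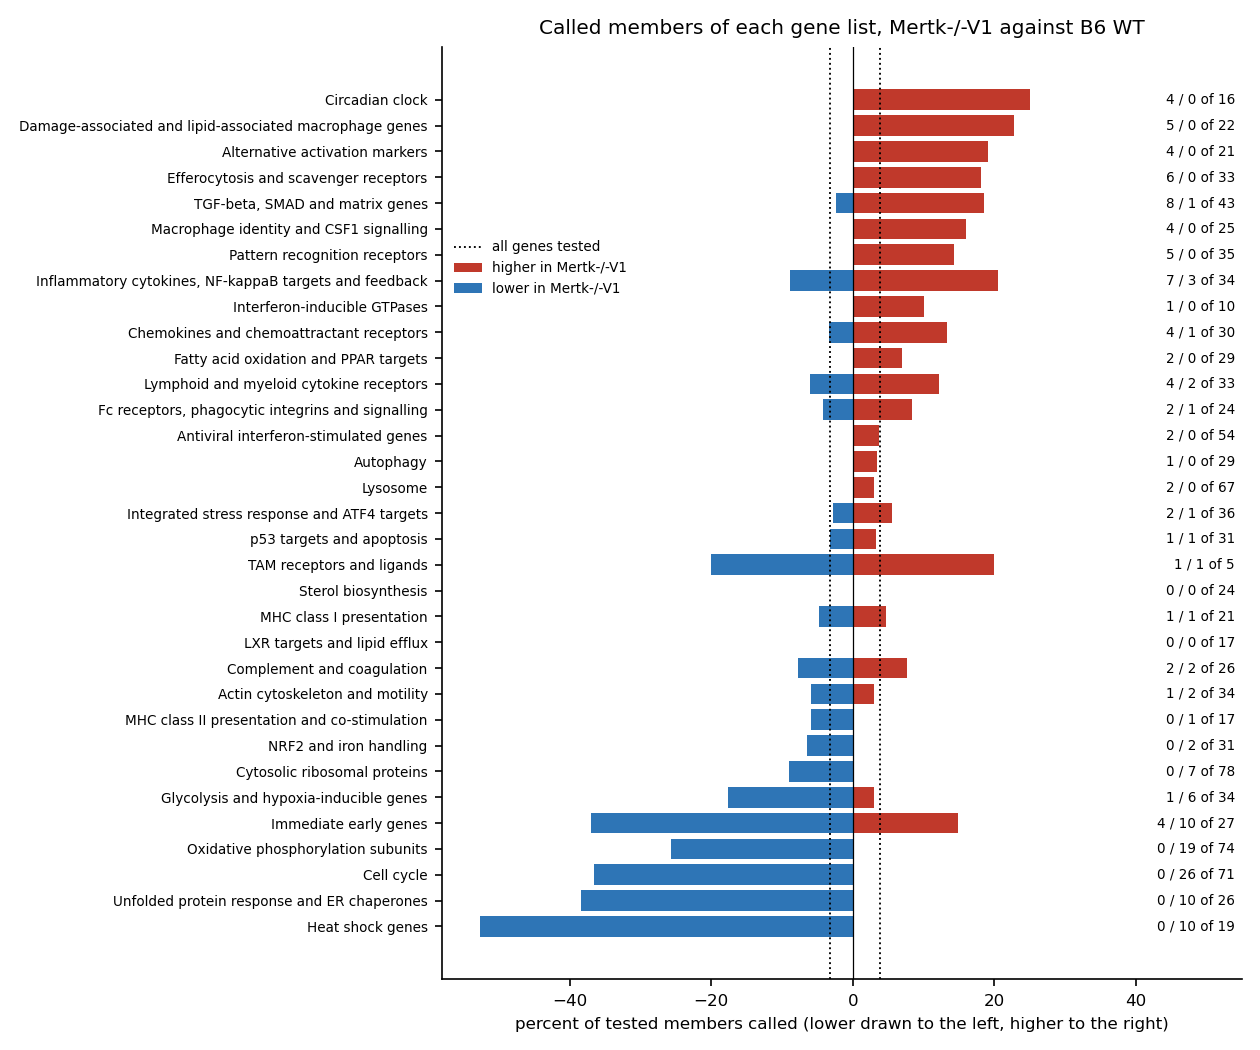
Share of the tested members of each of 33 gene lists that were called higher (right, red) or lower (left, blue) in Mertk-/-V1 than in B6 WT BMDMs, in percent, with the counts as higher / lower of tested members. The dotted lines mark the shares over all 13420 genes, 3.92% higher and 3.15% lower, which the heat shock (10 of 19 lower), immediate early (10 of 27 lower) and cell cycle (26 of 71 lower) lists passed by the widest margins together with the endoplasmic reticulum chaperones (10 of 26 lower).

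The deepest change outside chromosome 2 was in immediate early genes. Of 27 tested members, 10 were lower and 4 higher, with a median log2 fold change of -0.26 beside -0.0047 over all genes. Fosb, a subunit of the AP-1 transcription factor, fell from 567, 512 and 768 normalized counts in B6 WT to 41.1, 35 and 25.9 in Mertk-/-V1 (log2 fold change -4.14 ± 0.32, adjusted p = 5.94e-06). Dusp1, the phosphatase that switches off p38 and JNK, fell from 2322, 1995 and 2099 to 257, 264 and 291 (log2 fold change -2.98 ± 0.12, adjusted p = 5.33e-09). Fos, the founding member of its family, fell from 3038, 2377 and 2793 to 389, 489.9 and 471 (log2 fold change -2.60 ± 0.15, adjusted p = 2.89e-07). In all 3 genes the lowest B6 WT library was several times above the highest Mertk-/-V1 library.

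To show the DNA on which these genes are driven, the 250 bases before their transcription starts are printed from RefSeq (GRCm38.p6, gene strand, 5′ to 3′), with TGACG, the core to which CREB and ATF factors bind, in capitals on either strand.
Fosb (chr7:19310046-19310295, minus strand): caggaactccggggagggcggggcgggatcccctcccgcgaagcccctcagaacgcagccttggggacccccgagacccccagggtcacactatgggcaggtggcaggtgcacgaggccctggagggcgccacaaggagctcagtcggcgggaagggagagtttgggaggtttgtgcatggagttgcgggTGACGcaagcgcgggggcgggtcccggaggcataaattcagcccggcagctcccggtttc
Dusp1 (chr17:26508473-26508722, minus strand): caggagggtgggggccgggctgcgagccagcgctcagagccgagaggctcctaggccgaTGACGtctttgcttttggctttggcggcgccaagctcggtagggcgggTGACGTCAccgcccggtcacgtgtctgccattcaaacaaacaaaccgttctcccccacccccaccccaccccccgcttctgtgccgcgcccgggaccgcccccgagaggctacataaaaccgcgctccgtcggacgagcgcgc
Fos (chr12:85473640-85473889, plus strand): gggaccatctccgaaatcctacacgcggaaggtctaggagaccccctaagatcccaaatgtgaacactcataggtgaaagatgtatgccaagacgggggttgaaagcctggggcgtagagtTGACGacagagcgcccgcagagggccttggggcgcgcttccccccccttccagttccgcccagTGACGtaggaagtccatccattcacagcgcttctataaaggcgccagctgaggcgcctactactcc
The run in Dusp1 that begins 143 bases before the start holds the full palindrome TGACGTCA, in which the matches of both strands overlap. TGACG on either strand was found for 14 of the 21 immediate early genes with a RefSeq promoter (66.7%), beside 31.2% of the 9325 tested genes with one. It was present in 5 of 9 members that were lower and in 9 of 12 that were not. The CArG box of serum response factor was found in 2 of the 21 (9.52%), against 1.3% of tested genes.

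Klf2, a zinc-finger factor that restrains myeloid activation, fell from 1443, 1253 and 1268 to 613, 579 and 640.0 normalized counts (log2 fold change -1.11 ± 0.09, adjusted p = 1.01e-05). Zfp36, which encodes the protein that directs cytokine messages to decay, fell from 3501, 3037 and 3314 to 1762, 1992 and 2155 (log2 fold change -0.74 ± 0.09, adjusted p = 0.00023). Jun, the main partner of FOS, and Ier5 fell less, by 0.39 and 0.26 on the log2 scale. Btg2, Ier2 and Ier3, named here after their values were seen, were also lower (-0.57, -0.48 and -0.47). Not all immediate early genes moved this way. Egr2 and Egr3, zinc-finger factors of the EGR family, rose: Egr2 stood at 62.5, 52.2 and 71.3 in B6 WT and 103, 136 and 190.1 in Mertk-/-V1 (log2 fold change 1.16 ± 0.26, adjusted p = 0.0192), and Egr3 at 78.1, 110.0 and 91.8 and 173, 214 and 202 (log2 fold change 1.07 ± 0.20, adjusted p = 0.00814). Egr3 lost its call without B6 WT replicate 1 (adjusted p up to 0.0515) and Egr2 without any 1 of 4 libraries (up to 0.0882). Atf3 and Myc were higher by 0.38 and 0.32. Egr1 did not pass the test, with 455, 262 and 340.0 normalized counts in B6 WT and 166, 324 and 242 in Mertk-/-V1 (adjusted p = 0.205). Within the AP-1 family, 3 of 6 tested subunits fell, and Junb (-0.12), Jund (-0.20) and Fosl2 (0.01) did not pass the test. Among the dual-specificity phosphatases, Dusp1 and Dusp6 (log2 fold change -0.29) were lower while Dusp3 (0.21) and Dusp4 (0.64) were higher, and the other 6 of 10 tested were not called.

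The same genes were read in the other knockouts. Fos stood at 520.4, 476 and 483 normalized counts in Mertk-/-V2 and at 3025, 2235 and 1829 in Mertk-/-V3, and Fosb at 35.2, 32.3 and 59.8 and 940.5, 499.97 and 345. Dusp1 stood at 313, 249 and 281 and 1965, 1650.2 and 1332. For these 3 genes the Mertk-/-V2 libraries thus lay with Mertk-/-V1, and the Mertk-/-V3 libraries lay with B6 WT. The differences between Mertk-/-V1 and Mertk-/-V2 did not pass the test (log2 difference -0.14 for Fos, -0.28 for Fosb and -0.05 for Dusp1, adjusted p = 0.844, 0.855 and 0.947), whereas those between Mertk-/-V1 and Mertk-/-V3 did (-2.37, -3.99 and -2.59, largest adjusted p = 5.76e-06). Klf2 was lower in Mertk-/-V1 than in each of the others, at 779, 950.0 and 1040.2 in Mertk-/-V2 (-0.59, adjusted p = 0.00812) and 1328, 1257 and 1183 in Mertk-/-V3 (-1.04, adjusted p = 1.51e-05). The time from the last medium change or from lifting to lysis is not given in the sources used here, and whether it differed between cultures was not tested.

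**Figure D2:**
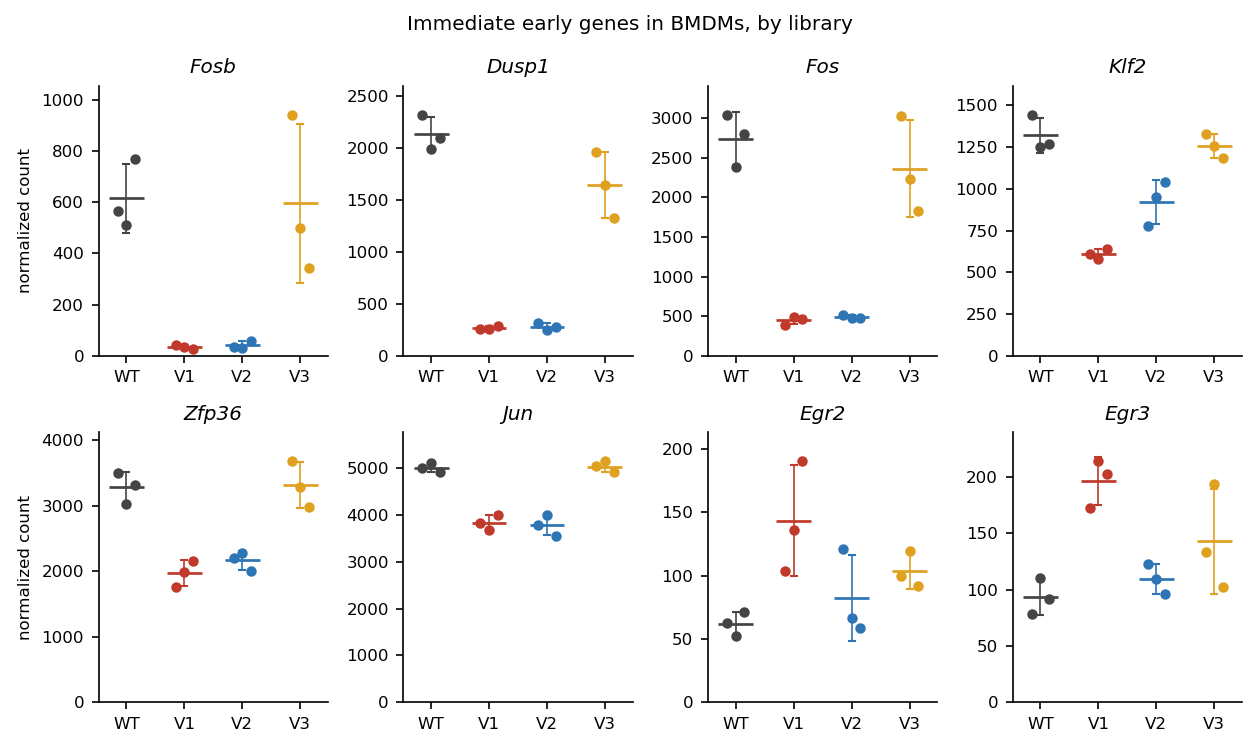
Normalized counts of 8 immediate early genes in the 3 BMDM libraries of B6 WT (grey), Mertk-/-V1 (red), Mertk-/-V2 (blue) and Mertk-/-V3 (yellow), with the mean as a line and the SD as a bar (n = 3 libraries). Fosb, Dusp1 and Fos are low in Mertk-/-V1 and Mertk-/-V2 and high in B6 WT and Mertk-/-V3, while Egr2 and Egr3 have their highest means in Mertk-/-V1.

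Some chaperones of the cytosol and of the endoplasmic reticulum were lower, by small amounts. Of 19 heat shock genes tested, 10 were lower and 9 did not pass the test, with a median log2 fold change of -0.19. Hspa8, the constitutive HSP70 that folds nascent chains, stood at 39263, 39338 and 38050.1 normalized counts in B6 WT and 32034, 30454 and 32041 in Mertk-/-V1 (log2 fold change -0.30 ± 0.05, adjusted p = 0.00212). Hsph1, its nucleotide exchange factor, stood at 1182, 1164 and 1072 normalized counts in B6 WT and 870.2, 889 and 858 in Mertk-/-V1 (log2 fold change -0.38 ± 0.08, adjusted p = 0.016). The genotypes did not overlap for either gene. Hsp90aa1 (-0.22), Dnajb1 (-0.24), which presents clients to HSP70, and the co-chaperones Fkbp4 (-0.23), Stip1 (-0.25), Chordc1 (-0.24) and Cacybp (-0.19) were lower as well. Reads of Hsp90aa1 may be shared with 2 near-identical gene models. The stress-inducible Hspa1a, which has a near-identical neighbour in Hspa1b, did not pass the test at a log2 fold change of -1.34, and neither did Hsf1 (0.07), the factor that drives the heat shock response. Without B6 WT replicate 2 only 2 heat shock genes were called, and without B6 WT replicate 1 only 3. Against the same B6 WT libraries, 7 members were lower in Mertk-/-V2 (median -0.20) and 2 in Mertk-/-V3 (median -0.07). Hspa8 had a log2 fold change of -0.42 in Mertk-/-V2. When Mertk-/-V1 was set against the other two knockouts averaged, 0 members of the list were called (median -0.04).

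Among 26 genes of the unfolded protein response and ER folding, 10 were lower and 16 did not pass the test (median log2 fold change -0.11). Creld2, a disulfide isomerase-like ER protein, stood at 1265, 1342 and 1253 normalized counts in B6 WT and 898, 981 and 952 in Mertk-/-V1 (log2 fold change -0.45 ± 0.05, adjusted p = 0.000162). Pdia6 stood at 12357, 12319 and 12067 normalized counts in B6 WT and 9936, 9680.1 and 9763 in Mertk-/-V1 (log2 fold change -0.32 ± 0.04, adjusted p = 0.000364), and Manf, a secreted ER stress protein, at 2479, 2282 and 2345 normalized counts in B6 WT and 1932, 1784 and 1877 in Mertk-/-V1 (log2 fold change -0.35 ± 0.06, adjusted p = 0.00486). Every B6 WT library was above every Mertk-/-V1 library for these 3 genes. Hspa5, the master chaperone BiP, fell by 0.23 and Hsp90b1, its HSP90 partner, by 0.29 on the log2 scale. The isomerases Pdia3 (-0.25) and Pdia4 (-0.26) and Sdf2l1 (-0.18) were lower too. The sensors and regulators of the pathway did not pass the test, with Xbp1 at -0.11, Atf6 at 0.13 and Ern1 at 0.23. Between 8 and 11 members were called when any single library was left out. In Mertk-/-V2, which shares the B6 WT libraries as its control, 10 members were lower as well, and the list medians were -0.18 there and -0.06 in Mertk-/-V3. When Mertk-/-V1 was set against the other two knockouts averaged, Creld2 alone of the list was called (-0.23, adjusted p = 0.0141), with -0.09 against Mertk-/-V2 (adjusted p = 0.688) and -0.38 against Mertk-/-V3 (adjusted p = 0.000694).

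The endoplasmic reticulum stress element, CCAAT followed 9 bases later by CCACG, is the site that ties many of these genes to ATF6 and XBP1, and it is shown in capitals, on either strand, in the 250 bases before the start of 3 of the lower genes (RefSeq, GRCm38.p6, gene strand).
Creld2 (chr15:88819396-88819645, plus strand): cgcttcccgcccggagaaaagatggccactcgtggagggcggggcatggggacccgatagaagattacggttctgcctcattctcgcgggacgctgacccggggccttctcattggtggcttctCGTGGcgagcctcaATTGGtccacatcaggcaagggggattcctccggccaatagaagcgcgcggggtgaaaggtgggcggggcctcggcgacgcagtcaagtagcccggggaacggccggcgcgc
Hspa5 (chr2:34771840-34772089, plus strand): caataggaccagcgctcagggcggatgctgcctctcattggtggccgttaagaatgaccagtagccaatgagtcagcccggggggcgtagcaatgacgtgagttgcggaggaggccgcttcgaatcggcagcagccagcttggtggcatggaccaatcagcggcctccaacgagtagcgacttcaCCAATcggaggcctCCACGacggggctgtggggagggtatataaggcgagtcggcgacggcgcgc
Pdia6 (chr12:17266339-17266588, plus strand): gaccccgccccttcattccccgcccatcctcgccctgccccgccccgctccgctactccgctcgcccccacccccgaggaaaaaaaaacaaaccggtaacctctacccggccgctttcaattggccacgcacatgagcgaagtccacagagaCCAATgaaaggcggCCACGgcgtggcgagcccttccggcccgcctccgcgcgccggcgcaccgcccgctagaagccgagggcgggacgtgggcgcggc
In Creld2 the element reads on the opposite strand. It was present in 9 of the 22 list members with a promoter (40.9%) and in 35 of all 27025 genes with one (0.13%). Of the lower members 4 of 8 held it, and of the others 5 of 14. The core of the heat shock element, GAANNTTC, was found in 6 of 15 heat shock genes with a promoter (40.0%), beside 6.07% of tested genes, and in 2 of the 7 lower ones.

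Part of the cell cycle genes were lower. Of 71 tested members 26 were lower and 45 did not pass the test (median log2 fold change -0.15). The 30 genes of G2 and M phase held 18 of the lower genes (median -0.23), the 30 of S phase 4 (median -0.05) and the 11 D cyclins and inhibitors the other 4, and the difference between the phases was not tested. Ube2c, the conjugating enzyme of the anaphase-promoting complex, stood at 2802, 2775 and 2521 normalized counts in B6 WT and 2188, 2084 and 2138 in Mertk-/-V1 (log2 fold change -0.34 ± 0.05, adjusted p = 0.003). Cdk1, the kinase that starts mitosis, stood at 3519, 3377 and 3014 normalized counts in B6 WT and 2611, 2682 and 2587 in Mertk-/-V1 (log2 fold change -0.33 ± 0.07, adjusted p = 0.0123), and Birc5, the survivin of the chromosomal passenger complex, at 2118, 1997 and 1821 normalized counts in B6 WT and 1589, 1659 and 1572 in Mertk-/-V1 (log2 fold change -0.30 ± 0.06, adjusted p = 0.0126). All 26 called members fell by less than 0.5 on the log2 scale. The groups did not overlap for 39 of the 71 tested members, beside 30.9% of all genes. The spindle genes Tpx2 (-0.26) and Bub1b (-0.27) and the cell cycle inhibitor Cdkn1a (-0.22) were also lower. Pcna (-0.28), which lies on chromosome 2 as do Ube2c, Tpx2 and Bub1b, has a near-identical copy, Pcna-ps2, which rose (2.49, adjusted p = 3.71e-07), so reads may have been split between them. The replication licensing genes Mcm2 (-0.03), Mcm4 (0.03) and Mcm6 (-0.04), picked as examples after their values were seen, did not pass the test, and nor did Mki67 (-0.18).

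The cell cycle count depended on single libraries of both genotypes. Without B6 WT replicate 1 the number of lower members was 6, without B6 WT replicate 2 it was 7, and without Mertk-/-V1 replicates 1, 2 and 3 it was 8, 15 and 8. Against the same controls, 12 members were lower in Mertk-/-V2 and 8 in Mertk-/-V3, and the median of the direct contrast with the other knockouts was 0.005. In bulk samples, fewer cycling cells and less RNA of these genes per cell cannot be told apart.

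In the respiratory chain and the ribosome, values below B6 WT were common and calls were fewer. All 74 tested subunits of oxidative phosphorylation had a log2 fold change below 0, between -0.37 and -0.002, with a median of -0.17, and 19 were called, 7 of 36 in complex I and 12 of 38 in complexes II to V. Uqcr11, a small subunit of complex III, stood at 1574, 1579.6 and 1387 normalized counts in B6 WT and 1214, 1235 and 1264 in Mertk-/-V1 (log2 fold change -0.29 ± 0.05, adjusted p = 0.00622). Ndufa5, of complex I, stood at 702, 655 and 655 normalized counts in B6 WT and 558, 496 and 521 in Mertk-/-V1 (log2 fold change -0.35 ± 0.07, adjusted p = 0.0126). Sdhd, of complex II (-0.18), Cox6c and Cox8a, of complex IV (-0.19 and -0.19), Atp5a1 and Atp5g3, of the ATP synthase (-0.16 and -0.18), and Ndufa8 (-0.22) were the others named by the smallest p. For 55 of the 74 the genotypes did not overlap, beside 30.9% of all genes. Of 78 cytosolic ribosomal proteins 7 were lower (median -0.12), among them Rps13 (-0.19) and Rpl18 (-0.15), and 59 did not overlap between the genotypes.

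These subunits are encoded by short transcripts, and the length of a transcript moved with the comparison. Over 11223 protein-coding genes, the Spearman correlation of the log2 fold change with the length of the longest annotated transcript was 0.287, a description over genes that share the same 6 libraries. The median log2 fold change rose from -0.089 in the shortest of 5 equal bins of genes (297 to 2001 bases) to 0.062 in the longest bin (5246 bases and more), and the shortest bin held 153 lower and 29 higher calls against 26 and 141 in the longest. B6 WT replicates 1 and 2 deviated from the mean of the 12 libraries with correlations of -0.278 and -0.232 with length, B6 WT replicate 3 with 0.034, and the 3 Mertk-/-V1 libraries with 0.151, 0.319 and 0.127. When each library's trend with length was removed, an alternative chosen after the data were seen, 1 oxidative phosphorylation subunit was called lower in place of 19 (median -0.09) and 3 ribosomal proteins in place of 7. The count of lower members was then 21 for the cell cycle, 7 for the heat shock genes, 9 for the ER chaperones and 11 for the immediate early genes. Other genes named in the text that lost their calls against B6 WT in this way included Cacybp, Stip1, Sdf2l1, Egln3, Ndrg1, F13a1, Ifi30, Itgb3, Sgsh, Zeb2, Tef, Nr1d2, Txn1 and Taldo1. Of the genes of glycolysis and the hypoxia response, 2 were called lower in place of 6. Creld2 lost its call against the other knockouts. Leaving out B6 WT replicate 1 left 1 subunit called, and leaving out B6 WT replicate 3 gave 35.

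**Figure D3:**
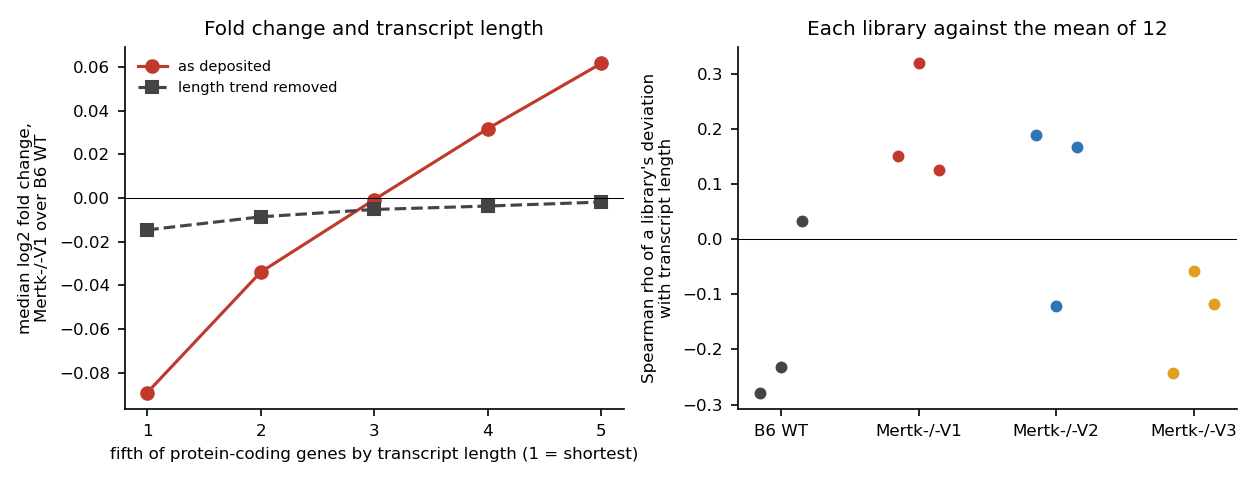
Left, median log2 fold change of Mertk-/-V1 over B6 WT in 5 equal bins of 11223 protein-coding genes by transcript length, from the deposited values (red) and after each library's trend with length was removed (grey). Right, Spearman correlation of each library's deviation from the 12-library mean with transcript length, where B6 WT replicates 1 and 2 lie at -0.278 and -0.232 and the Mertk-/-V1 libraries between 0.127 and 0.319.

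Of 34 genes of glycolysis and the hypoxia response, 6 were lower and 1 higher (median -0.09). The glycolytic enzymes Ldha, Pfkl and Aldoa were lower by 0.20, 0.25 and 0.20 on the log2 scale, Pgk1, which has near-identical copies, by 0.20, and P4ha1, a collagen hydroxylase, by 0.20. Egln3, an oxygen sensor, was lower at 183, 179 and 171 normalized counts in B6 WT and 126, 105 and 109 in Mertk-/-V1 (log2 fold change -0.65), and Ndrg1, a hypoxia-inducible stress gene, was higher (0.47). With the length trend removed 2 members were lower in place of 6, and 0 were higher.

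**Figure D4:**
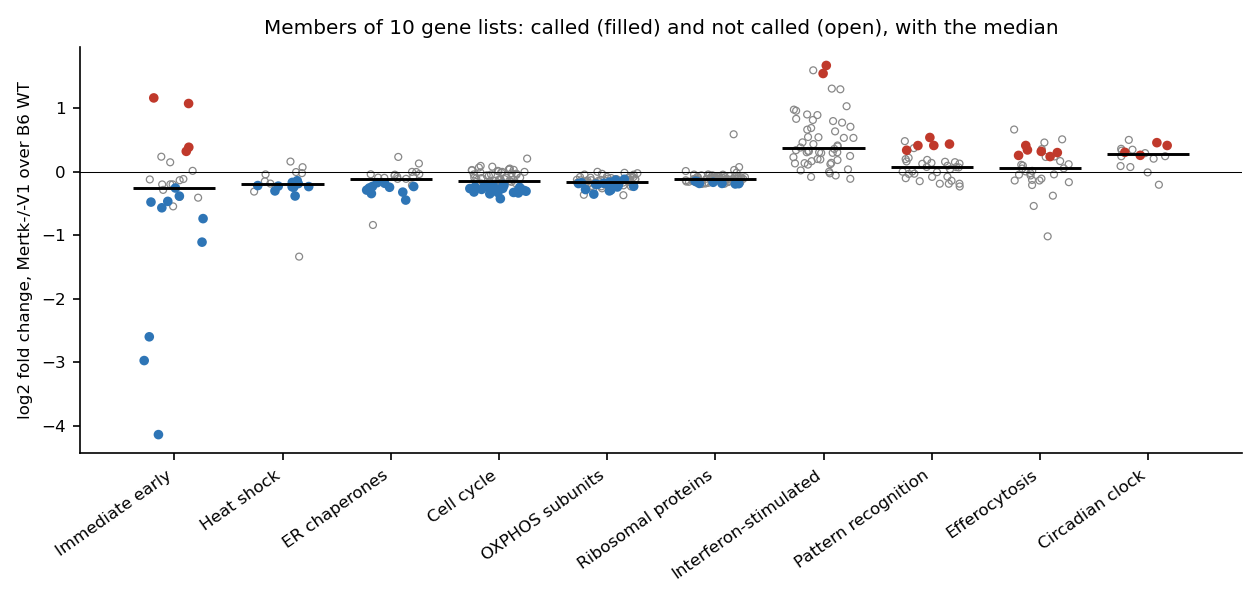
Log2 fold change of Mertk-/-V1 over B6 WT for each tested member of 10 gene lists, with called members filled (red higher, blue lower), members that did not pass the test open, and the median as a bar. The immediate early genes reach from -4.14 to 1.16, the respiratory chain and ribosomal lists form narrow bands just below 0, and the interferon-stimulated genes lie mostly above 0 with 2 of 54 called.

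Inflammatory mediators and their brakes moved in both directions. Of 34 tested genes of the NF-kappaB programme 7 were higher and 3 lower. Il1rn, which encodes the antagonist of the IL-1 receptor and lies on chromosome 2, stood at 394, 436 and 412 normalized counts in B6 WT and 661, 909.8 and 984 in Mertk-/-V1 (log2 fold change 1.02 ± 0.14, adjusted p = 0.000852). Tnip3 and Tnfaip3, inhibitors of NF-kappaB signalling, stood at 157, 139 and 185 normalized counts in B6 WT and 230.2, 333 and 333 in Mertk-/-V1 (log2 fold change 0.88 ± 0.18, adjusted p = 0.0117) and at 672, 712 and 709 normalized counts in B6 WT and 858, 934 and 913 in Mertk-/-V1 (log2 fold change 0.37 ± 0.07, adjusted p = 0.00602). Each Mertk-/-V1 library was above each B6 WT library for all 3. Of these, Tnip3 lost its call without B6 WT replicates 1 or 2 or Mertk-/-V1 replicates 2 or 3 (adjusted p up to 0.0616). Csf1, the growth factor of macrophages, was higher (122, 110.0 and 172 against 270.1, 268 and 326, log2 fold change 1.11), as were the inflammasome sensor Nlrp3 (0.26) and the adhesion molecule Icam1 (0.20). The lower genes were Dusp1, Zfp36 and Dusp6, which are feedback inhibitors as well. Of 5 NF-kappaB subunits, Relb rose (301, 262 and 240.3 against 400.5, 371 and 429.7, log2 fold change 0.58 ± 0.10, adjusted p = 0.00364), and Rela (0.06), Rel (0.15), Nfkb1 (0.04) and Nfkb2 (0.21) did not pass the test. Tnf did not pass it either (952, 934 and 862 normalized counts in B6 WT and 912, 996 and 829 in Mertk-/-V1).

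Among 35 pattern recognition receptors and adaptors 5 were higher. They were the C-type lectins Clec4e (Mincle, 700.4, 658 and 625 against 866, 932 and 840.2 normalized counts, log2 fold change 0.41 ± 0.08, adjusted p = 0.00763) and Clec7a (Dectin-1, log2 fold change 0.54), the flagellin sensor Naip5 (0.34), its partner Nlrc4 (0.43) and the peptidoglycan sensor Nod1 (0.41). Clec4e was also above Mertk-/-V2 (0.60, adjusted p = 0.00114) and Mertk-/-V3 (1.04, adjusted p = 2.34e-06). Of 30 chemokines and chemoattractant receptors 4 were higher and 1 lower. The CCR2 ligands Ccl7, Ccl2 and Ccl12, which lie in a cluster on chromosome 11 and draw monocytes, rose: Ccl7 from 4102, 3982 and 3909 to 6411, 6327 and 5546 (log2 fold change 0.61 ± 0.06, adjusted p = 4.41e-05), Ccl2 from 7843, 7979.7 and 7442 to 10440.3, 11044 and 10060.2 (log2 fold change 0.44 ± 0.05, adjusted p = 0.000143) and Ccl12 by 0.55 on the log2 scale. Ccr1, a receptor of inflammatory chemokines, fell from 1659.8, 1607 and 1743 to 1251, 1229.8 and 1195 (log2 fold change -0.45 ± 0.05, adjusted p = 8.86e-05). Ccr3 rose from 36.2, 35 and 58.6 to 82.2, 96 and 85.5 (1.04, adjusted p = 0.0271). Ccr3 is also 1 of 6 eosinophil markers, whose summed level was 37.5 to 62.5 in B6 WT and 86.9 to 104 in Mertk-/-V1, with Epx, Ear1 and Ear6 at 0. Ccr3 lost its call when any 1 of 5 of the 6 libraries compared was left out (largest adjusted p = 0.121). Cx3cr1 varied within B6 WT (854, 913 and 251, against 156, 373 and 182 in Mertk-/-V1) and did not pass the test.

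The receptors that carry inhibitory and activating motifs rose together. Lilrb4a and Lilr4b, neighbouring immunoglobulin-like receptors on chromosome 10, stood at 1056, 1234 and 1528 normalized counts in B6 WT and 3262, 3297 and 2974 in Mertk-/-V1 (log2 fold change 1.33 ± 0.17, adjusted p = 0.000549) and at 6479.7, 6723 and 7276 normalized counts in B6 WT and 13186, 12823 and 11718 in Mertk-/-V1 (log2 fold change 0.88 ± 0.07, adjusted p = 6.08e-06). The paired receptors Pirb and Pira2 stood at 3285, 3418 and 3996 normalized counts in B6 WT and 4786, 4784 and 5368 in Mertk-/-V1 (log2 fold change 0.48 ± 0.11, adjusted p = 0.0186) and at 209.6, 232 and 252 normalized counts in B6 WT and 391, 359.9 and 355 in Mertk-/-V1 (log2 fold change 0.67 ± 0.09, adjusted p = 0.00101). All 4 receptors were higher in every Mertk-/-V1 library than in any B6 WT library, and Lilra6 did not pass the test (0.26). Pirb and Pira2 share near-identical sequence with other gene models of their cluster, so that their separate values are uncertain. In the direct contrast with the other two knockouts Lilrb4a (0.71), Lilr4b (0.51) and Pira2 (0.52) were called. Against Mertk-/-V2 alone they did not pass the test (0.38, 0.25 and 0.38, adjusted p = 0.659, 0.229 and 0.154), and against Mertk-/-V3 alone they did (1.05, 0.77 and 0.67). Among the other cytokine receptors of this list of 33, both chains of the IL-10 receptor fell, Il10ra from 1282, 1313 and 1327 to 1031, 953 and 976 (log2 fold change -0.41 ± 0.05, adjusted p = 0.000772) and Il10rb by 0.17 on the log2 scale, which left 4 members higher and 2 lower. Both chains were also lower in Mertk-/-V2 than in B6 WT (-0.42 and -0.16), and neither passed the test in Mertk-/-V3 (-0.07 and -0.02).

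**Figure D5:**
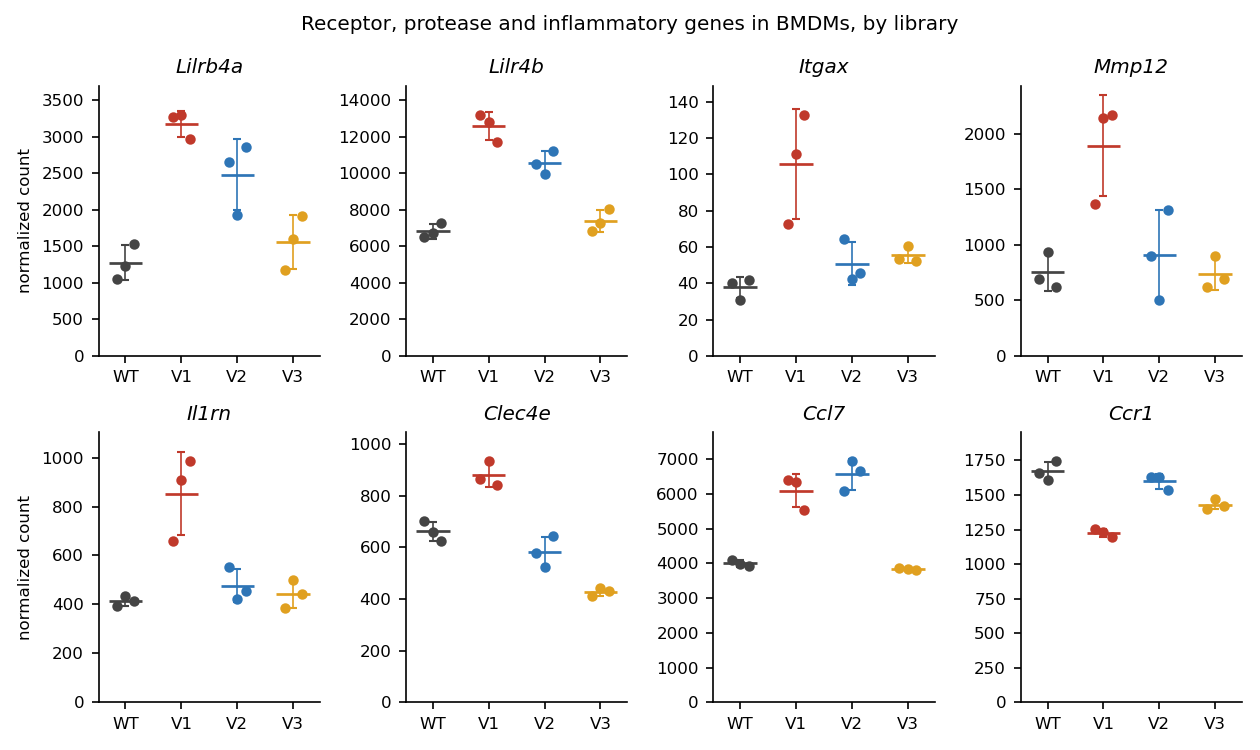
Normalized counts of 8 receptor, protease and inflammatory genes in the 3 BMDM libraries of each genotype (B6 WT grey, Mertk-/-V1 red, Mertk-/-V2 blue, Mertk-/-V3 yellow), with mean and SD (n = 3 libraries). Itgax, Mmp12, Il1rn and Clec4e are highest in Mertk-/-V1, Lilrb4a, Lilr4b and Ccl7 are above B6 WT in both Mertk-/-V1 and Mertk-/-V2, and Ccr1 is lowest in Mertk-/-V1.

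Of 33 tested genes of efferocytosis and scavenging, a list without Mertk, 6 were higher. They were 3 of 11 phosphatidylserine receptors and bridges, 2 of 10 scavenger receptors and 1 of 12 don't-eat-me and signalling genes. Scarf1, which binds complement-coated apoptotic cells, stood at 615, 579.5 and 592 normalized counts in B6 WT and 765, 744 and 756 in Mertk-/-V1 (log2 fold change 0.34 ± 0.06, adjusted p = 0.00409). Cd300a and Cd300lb, phospholipid receptors, were higher by 0.30 and 0.24, Itgb3, the integrin chain that reads the bridging protein MFG-E8, by 0.32, the haemoglobin scavenger receptor Cd163 by 0.41, and Sirpa, the receptor of the signal CD47 on chromosome 2, by 0.26. Itgb3 was above both Mertk-/-V2 (0.47) and Mertk-/-V3 (0.77), but its call against B6 WT was lost when any 1 of the 6 libraries was left out and held in 7 of 15 alternatives (adjusted p up to 0.134). Among the 5 tested members of the TAM list, Mertk was lower and the ligand Lgals3 was higher (0.32). The ligands Gas6 (37732, 37000.0 and 41477 against 44355, 37462 and 41507) and Pros1 (1089, 1272 and 1253 against 1288, 1265 and 1321) did not pass the test. Of 24 Fc receptors, phagocytic integrins and their signalling partners, Itgax (CD11c) rose from 40.3, 31 and 42 to 72.8, 111 and 133 (log2 fold change 1.43 ± 0.23, adjusted p = 0.00336), Itga4 rose by 0.38 and Itga6 fell by 0.53 on the log2 scale, the last 2 on chromosome 2. The 5 tested Fc receptors were not called. Itgax is also 1 of 10 dendritic cell markers, whose summed level was 171 to 195 in B6 WT and 233 to 309 in Mertk-/-V1. Of the others, Flt3, Zbtb46 and Xcr1 stood below 13 normalized counts in all 6 libraries, and H2-Ab1 at 98.7, 73.4 and 76.2 in B6 WT and 97.5, 96 and 111 in Mertk-/-V1.

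Of 25 genes of macrophage identity 4 rose, 3 of them receptors of growth factors other than CSF1, namely Csf2ra (2614, 2767 and 2781 against 3339, 3691 and 3670.2, log2 fold change 0.39 ± 0.06, adjusted p = 0.00373) and Csf2rb2 (0.25), chains of the GM-CSF and related receptors, Csf3r (0.32), the G-CSF receptor, and the transcription factor Zeb2 (0.22). Csf1r, the receptor of CSF1, did not pass the test (27215, 28388 and 28238 normalized counts in B6 WT and 28711, 28673 and 28563 in Mertk-/-V1, log2 fold change 0.04 ± 0.05, adjusted p = 0.73). The summed level of the 8 monocyte markers was 11667 to 12065 normalized counts in B6 WT and 13312 to 16369 in Mertk-/-V1. Of these, F13a1, which made up most of the sum, was called (log2 fold change 0.36), and Ly6c2 stood at 58.4, 57.1 and 54.7 in B6 WT and 48.1, 65 and 70.9 in Mertk-/-V1. Their part in these results was not tested.

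Matrix and TGF-beta genes included some of the larger changes. Of 43 tested genes 8 were higher and 1 lower. Mmp12, the macrophage elastase, stood at 695, 939 and 621 normalized counts in B6 WT and 1371, 2139 and 2169 in Mertk-/-V1 (log2 fold change 1.32 ± 0.28, adjusted p = 0.0144). Mmp13, a collagenase, rose by 0.99 (131, 161 and 96.7 against 209, 286 and 271). Mmp9, a gelatinase on chromosome 2, stood at 78.9, 75 and 148 normalized counts in B6 WT and 150.3, 201 and 253 in Mertk-/-V1 (log2 fold change 1.03), where B6 WT replicate 3 nearly reached the lowest Mertk-/-V1 library. Mmp12 was also above the average of the other knockouts (log2 fold change 1.24 ± 0.24, adjusted p = 0.0218), with 1.14 against Mertk-/-V2 alone (adjusted p = 0.154). Bmpr1a, a BMP receptor, rose from 18.1, 30.2 and 15.6 to 72.8, 57 and 78.7 (log2 fold change 1.70 ± 0.26, adjusted p = 0.00208), and Id2, a target of BMP signals, from 1658, 1679 and 1588 to 2032, 2105 and 2161 (0.35). Both were also higher in Mertk-/-V2 than in B6 WT (1.36 and 0.51). Between Mertk-/-V1 and Mertk-/-V2 neither passed the test (adjusted p = 0.771 and 0.534). Smurf1, a ligase that removes SMADs, Ltbp3, which stores TGF-beta in the matrix, and the protease Adamts1 were higher by 0.29, 0.27 and 1.54. Adamts1 rose from low counts (10.7, 7.34 and 5.86 against 17.6, 27 and 30.4). It was called in 10 of 15 alternatives (adjusted p up to 0.083). Thbs1 on chromosome 2, thrombospondin, which activates TGF-beta, fell (350.2, 381 and 420.1 normalized counts in B6 WT and 115, 152 and 124 in Mertk-/-V1, log2 fold change -1.56 ± 0.12, adjusted p = 7e-06). Of 9 osteoclast markers, which summed to 1925 to 2158 in B6 WT and 2336 to 2558 in Mertk-/-V1, 3 were higher, Mmp9, Atp6v0d2 and Dcstamp, the fusion receptor of osteoclasts and giant cells. Dcstamp had the largest rise of them, from 3.29, 7.34 and 7.81 to 30.5, 27 and 34.9 (log2 fold change 2.22 ± 0.39, adjusted p = 0.00559). Calcr was at 0, and Acp5 (15.6 to 22 in B6 WT, 15.7 to 18.8 in Mertk-/-V1) and Ctsk (13.7 to 17.1 and 18 to 24) were low in both genotypes. Most of the sum was Nfatc1, which did not pass the test (1615, 1707 and 1678 in B6 WT and 1705, 1682 and 1666 in Mertk-/-V1). In Mertk-/-V3 the markers summed to 2478 to 2633, with Mmp9 at 321, 325 and 327 and Atp6v0d2 at 455, 484 and 501. The part of osteoclasts in these results was not tested. Mmp12 lost its call against B6 WT without B6 WT replicate 1 or Mertk-/-V1 replicates 2 or 3 (adjusted p up to 0.0706 over the alternatives).

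Markers of wound-repair and lipid-associated macrophages rose in part. Of 21 alternative activation markers 4 were higher and 0 lower, while 5 had a log2 fold change below 0, the lowest at -1.50. The list median was 0.17, beside 0.12 in Mertk-/-V2 and 0.23 in Mertk-/-V3 against the same B6 WT libraries. Against the other knockouts averaged, 0 members were called. Mgl2, a galactose lectin induced by IL-4, had the second largest rise among protein-coding genes outside chromosome 2 by the rule used (32.9, 19.6 and 65.5 normalized counts in B6 WT and 171, 125 and 205 in Mertk-/-V1, log2 fold change 2.20 ± 0.40, adjusted p = 0.00634), and Hbegf, a growth factor of the EGF family, rose by 0.95. Cd163 and Egr2 were the other members called. Of 22 genes of damage-associated and lipid-associated macrophages 5 were higher, Fabp4, a fatty acid carrier, among them (183, 202 and 226 normalized counts in B6 WT and 312, 367 and 346 in Mertk-/-V1, log2 fold change 0.75 ± 0.17, adjusted p = 0.0183) with Itgax, Csf1, Clec7a and Lgals3, while Apoe did not pass the test (-0.15).

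Interferon-stimulated genes lay above 0 as a list, but few were called. Of 54 antiviral genes 49 had a log2 fold change above 0 (median 0.37), and 2 were called by limma (2 by edgeR and 5 by DESeq2, with 20 higher at an unadjusted p under 0.05), Mx1 (41.9, 21.2 and 62.5 normalized counts in B6 WT and 123, 134 and 116 in Mertk-/-V1, log2 fold change 1.67 ± 0.39, adjusted p = 0.0227) and Ifit1 (32.9, 29.3 and 49.8 normalized counts in B6 WT and 91.6, 99 and 139 in Mertk-/-V1, log2 fold change 1.55 ± 0.41, adjusted p = 0.0376). The genotypes did not overlap for either gene, and for 31 of the 54, beside 30.9% of all genes. Both genes lost their calls when any library of the 6 but B6 WT replicate 3 was left out (adjusted p up to 0.102 and 0.138). The effectors had a median of 0.50 and the sensors and transcription factors of 0.24. Mertk-/-V2 and Mertk-/-V3, compared with the same B6 WT libraries, had medians of 0.35 and 0.37, and the median of Mertk-/-V1 against both together was 0.003. Of 10 GBP and IRG GTPases 10 were above 0 (median 0.39) and Iigp1 was called from low counts (6.58, 8.15 and 6.84 normalized counts in B6 WT and 36.4, 28 and 18 in Mertk-/-V1), with 0 calls by edgeR and 2 by DESeq2. In MHC class I presentation 1 of 21 rose, the transactivator Nlrc5 (0.45), and 1 fell, Pdia3. In class II presentation and co-stimulation 1 of 17 fell, the lysosomal thiol reductase Ifi30 (2787, 2820.2 and 2698 normalized counts in B6 WT and 2326, 2315 and 2288 in Mertk-/-V1, log2 fold change -0.26 ± 0.04, adjusted p = 0.00426).

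In the lists of metabolism, stress, cell death and actin that follow, 0% to 8.82% of members were called, beside 7.07% of all genes. In 17 targets of LXR (median 0.21) and 24 genes of sterol synthesis (median 0.13) 0 were called by limma, and Scd2 (0.34) and Srebf2 (0.08) are values that did not pass the test. Of the LXR targets 14 lay above 0, and of the sterol genes 22. Against the same B6 WT libraries, the medians in Mertk-/-V2 and Mertk-/-V3 were 0.11 and 0.09 for LXR targets and -0.05 and 0.06 for sterol genes. At an unadjusted p under 0.05, 6 LXR targets were higher and 1 lower and 2 sterol genes higher, and edgeR and DESeq2 called 0 in either list. Of 67 lysosomal genes 2 rose, the proton pump subunit Atp6v0d2 (196, 209 and 292 normalized counts in B6 WT and 411, 385 and 565 in Mertk-/-V1) and the sulfatase Sgsh (0.21). Of 29 genes of fatty acid oxidation 2 rose, Fabp4 and Cpt1a (0.30), which carries fatty acids into mitochondria, and of 29 autophagy genes 1 rose, Atg2a (0.26). Among 36 genes of the integrated stress response, Trib3, an inhibitor of AKT on chromosome 2, rose from 139, 146 and 181 to 319, 242 and 316 (log2 fold change 0.91 ± 0.14, adjusted p = 0.00172) with Atf3, and Cebpg fell (-0.29). Of 31 NRF2 and iron genes Txn1 (-0.22) and Taldo1 (-0.25) fell, and with the length trend removed both calls were lost (adjusted p up to 0.0914 and 0.169 over the alternatives). Of 31 p53 and apoptosis genes Bcl2l11, which encodes the pro-apoptotic BIM and lies on chromosome 2, rose (781, 819 and 892 against 1143, 1155 and 1129, log2 fold change 0.46 ± 0.06, adjusted p = 0.000402) and Cdkn1a fell. Of 34 actin genes Vcl, of focal adhesions, rose (0.39) and Tmsb4x, which holds actin monomers, and Rhob fell (-0.37 and -0.19).

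Complement and coagulation genes were called in both directions. Of 26 tested, 2 were higher (Itgax and F13a1) and 2 lower (Thbs1, on chromosome 2, and C1qa), beside 3.92% and 3.15% of all genes. The calls made up 15.4% of the list, beside 7.07% of all genes. F13a1 was called in 8 of 15 alternatives. C1qa, a chain of the first complement component, stood at 21287, 21529 and 19566 normalized counts in B6 WT and 16931, 15278 and 15295 in Mertk-/-V1 (log2 fold change -0.39 ± 0.06, adjusted p = 0.00115), and the other chains C1qb (-0.14) and C1qc (-0.16) did not pass the test. Clock genes rose in part, with 4 of 16 higher (median 0.27). Against the same B6 WT libraries, 2 were higher in Mertk-/-V2 (median 0.27) and 0 in Mertk-/-V3 (median 0.12). When Mertk-/-V1 was set against the other knockouts averaged, 0 clock genes were called. Per1, a repressor of the core clock, stood at 543, 503 and 509.9 normalized counts in B6 WT and 711, 665 and 696 in Mertk-/-V1 (log2 fold change 0.41 ± 0.06, adjusted p = 0.00137). Per3 rose by 0.46, the output factor Tef by 0.26 and Nr1d2 by 0.30. Per2 did not pass the test (0.35). With the length trend removed 2 clock genes were higher, and Per3, Tef and Nr1d2 were called in 9, 8 and 7 of 15 alternatives. The hour at which cultures were lysed is not given in the sources used here.

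Beyond the lists, the rule of the 12 largest changes in each direction named genes of several kinds. Eif3j2 on chromosome 18 had the largest rise (56.7, 35 and 32.2 normalized counts in B6 WT and 308, 268 and 297 in Mertk-/-V1, log2 fold change 2.83 ± 0.21, adjusted p = 3.54e-06), but its transcript is nearly identical to that of Eif3j1 on chromosome 2, so that its reads may come from either gene. Pcdhac2, a protocadherin, rose by 1.62 (39.5, 53 and 52.8 against 171, 120.0 and 163), and Arhgef18, an exchange factor of RHOA, by 1.49 (68.2, 57.9 and 79.1 against 183, 202 and 191). Both were also high in Mertk-/-V2, at 154, 163 and 112 and 193, 204 and 220.4. Igf2bp3, an RNA-binding protein of proliferating cells, fell from 185, 175 and 177 to 102, 105 and 96.7 (log2 fold change -0.82 ± 0.12, adjusted p = 0.00172). Its log2 fold change against B6 WT was -1.25 in Mertk-/-V2, and the difference between Mertk-/-V1 and Mertk-/-V2 did not pass the test (adjusted p = 0.267). Hpgd, which degrades prostaglandins, fell from 151, 212 and 145 to 107, 83 and 96.7 (log2 fold change -0.80 ± 0.19, adjusted p = 0.0227). Ctla2a, a cathepsin inhibitor (-1.60), the collagen Col14a1 (-1.92), the zinc-finger factor Prdm16 (-0.80) and the GTPase Rab39 (-0.82) fell from low levels, with at most 109 normalized counts in a B6 WT library.

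Which of these changes set Mertk-/-V1 apart from the other knockouts was tested in a contrast between the knockouts, into which the B6 WT libraries entered only through the shared estimate of the spread. Against the other knockouts averaged with equal weight, 89 of 13420 genes were higher (0.663%) and 44 lower (0.328%), of which 57 and 28 lay outside chromosome 2. Of those outside chromosome 2, 34 of the 57 higher genes (59.6%) and 18 of the 28 lower genes (64.3%) were called the same way against B6 WT, which is 7.46% of the 456 higher and 4.84% of the 372 lower genes of that comparison. Both contrasts share the Mertk-/-V1 libraries, so the overlap is given as a count alone. Taken singly, 18 genes outside chromosome 2 were higher and 5 lower in Mertk-/-V1 than in Mertk-/-V2, and 202 were higher and 131 lower than in Mertk-/-V3. Higher than in B6 WT, Mertk-/-V2 and Mertk-/-V3 each were 7 genes, Clec4e, Itgb3, Tnip3, the TGF-beta family ligand Gdf3, Eif3j2 and the pseudogenes Gm3650 and Pcna-ps2, the last 3 with near-identical copies on chromosome 2. Lower than in each of them were 2 genes, Klf2 and Ccr1. Gdf3, named here after its values were seen, stood at 835, 908 and 1035 in Mertk-/-V1, 443, 431 and 439.6 in B6 WT, 235, 224 and 258 in Mertk-/-V2 and 130.0, 104 and 150.2 in Mertk-/-V3.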

How the data were processed

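BMDM polyadenylated RNA was sequenced by the authors as 150 bp paired ends on a NovaSeq instrument, trimmed with btrim, aligned with STAR to GRCm38 and scaled with DESeq2. The read counter, the annotation release and the tool versions are not given in the sources used here. The deposited signal values are normalized counts, the counts of reads per gene divided by 1 size factor per library. Dividing by the value of 1 read gave whole reads (within 0.001) for 100% of the values in every library, 16629659 to 25653814 reads on genes in the 12 BMDM libraries.

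The main test was limma 3.58.1 (R 4.3.3) with a mean-variance trend on log2(value + 1), so that fold changes of low genes are understated, over 13420 genes whose values averaged 10 or more in the 12 BMDM libraries, with the 4 genotypes in 1 model and Benjamini-Hochberg adjustment. A gene was called at an adjusted p under 0.05. Values after ± are standard errors of the fit, and p-values measure only the spread between these samples. The script was tested on simulated data. edgeR 4.0.16 and DESeq2 1.42.0 on the recovered reads, a pseudocount of 5, no filter, quantile normalization, array weights, only the groups compared, a replicate block and leaving out each library were the alternatives, and removal of the transcript length trend was added after the data were seen.

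Named genes were the 12 largest called changes in each direction among protein-coding genes outside chromosome 2 (mean of at least 50 in the higher group), up to 8 called members of each list by p, and the families compared. Others are said to have been chosen after their values were seen or are given as values that did not pass the test. Some genes that the rule picks are not reported here. The lists and members were chosen with earlier results of these data known. Transcripts were called near-identical at 97% identity or more. Promoters came from the RefSeq table, in which 9325 of 13398 gene names tested had an entry, and a gene counted as holding a motif if any of its promoters did, with each motif searched on both strands.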

Additional observations from a re-analysis of the deposited data

How the results depend on the processing

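No result changed direction under any alternative. Against B6 WT, array weights called 1551 genes higher and 1215 lower (526 and 423 as reported) with 91 and 20 past the fold threshold of the study's methods (47 and 10), and raised the lower oxidative phosphorylation subunits to 52. Without the filter, 226 genes were lower, 16 of them past that fold threshold, with 4 oxidative phosphorylation, 6 heat shock and 17 cell cycle members. Removing the length trend left 1 oxidative phosphorylation subunit. For the contrast with the other two knockouts, array weights called 79 genes lower and DESeq2 68, in place of 44. Same-numbered libraries did not deviate together (correlations -0.17, 0.15 and 0.14), so the numbers do not pair the samples; the replicate block gave 353 higher and 212 lower genes, 6 oxidative phosphorylation, 5 heat shock and 15 cell cycle members. Leaving out 1 library gave 153 to 728 higher and 89 to 468 lower genes, 25 to 81 and 7 to 11 past the fold threshold, 1 to 35 oxidative phosphorylation, 2 to 8 heat shock and 6 to 24 cell cycle members, and 49 to 170 and 25 to 94 genes in the contrast with the other knockouts. The immediate early and ER chaperone counts stayed within 1.5 times under every alternative run. Of 143 named called genes, 58 were called under every alternative. A Y-linked covariate was not run, since Y-linked genes were near 0 in all 12 libraries. Differences of a few reads in genes under the filter were not detectable at this depth.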

Other observations

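Among nuclear-retained RNAs, Neat1, the scaffold of paraspeckles, stood at 2814, 2731 and 3575 normalized counts in B6 WT and 7282, 7861 and 7952 in Mertk-/-V1 (log2 fold change 1.35 ± 0.13, adjusted p = 3.16e-05, limma with Benjamini-Hochberg adjustment). It was 4468, 4883 and 6099 in Mertk-/-V2 and 4748, 5372 and 6431 in Mertk-/-V3, and was higher in Mertk-/-V1 than in their mean (log2 fold change 0.54 ± 0.11, adjusted p = 0.0261), a call that was lost when the transcript length trend was removed. The other 2 RNAs of this kind, Malat1 (0.14) and Kcnq1ot1 (0.56), did not pass the test. Nab1, a co-repressor of the EGR factors, was higher in Mertk-/-V1 (1616, 1796 and 1869.7 against 2007, 2114 and 2107, log2 fold change 0.24 ± 0.06, adjusted p = 0.023). Nab1 was called in 11 of 15 alternatives (adjusted p up to 0.1155). Nab2, the other co-repressor of this kind tested, did not pass the test (-0.01). Of the EGR factors, Egr2 and Egr3 were higher and Egr1 did not pass the test (-0.55).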
